A study of Mus musculus with 16 samples.

Results

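The NRF2 and thioredoxin genes examined here are 9 genes taken by symbol: the regulators Nfe2l2 and Keap1 and the antioxidant genes Nqo1, Hmox1, Srxn1, Txnrd1, Txn1, Prdx1 and Me1. All 9 were found among the 17159 genes of the depth-normalized read table, and all 9 passed the filter on low values (a mean of at least 10 reads over the libraries) that left 12469 genes for testing. The RNA came from CD8+ T cells of C57BL/6 mice. All cells had first been stimulated for 2 days through CD3 and CD28, and were then held for 36 h in 1 of 4 media, with 4 libraries per medium and 16 in all. The media were fresh medium lacking methionine (methionine-free fresh medium), fresh medium containing it (complete fresh medium), conditioned supernatant of the mouse melanoma line B16F10 (supernatant), and that supernatant with methionine added back (supplemented supernatant). The labels give neither the age or sex of the mice nor the methionine concentrations. Nor is it stated if the 4 libraries came from separate animals or cultures, so every p-value below measures only the spread between libraries, which may be technical.

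NRF2, the product of Nfe2l2, is a transcription factor that turns on genes for antioxidant and detoxifying enzymes. KEAP1 is the adaptor that presents NRF2 to a CUL3 ubiquitin ligase for degradation, and oxidants and electrophiles that react with KEAP1 cysteines let NRF2 build up, pair with a small MAF protein and bind antioxidant response elements. Because much of this control acts on the NRF2 protein, the level of Nfe2l2 RNA is not a measure of NRF2 activity. Thioredoxin, the product of Txn1, reduces disulfides in other proteins, including ribonucleotide reductase, peroxiredoxins and methionine sulfoxide reductases, and thioredoxin reductase 1 (Txnrd1) recharges it with electrons from NADPH. Dividing T cells are known to draw on this system.

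Recovered reads per library ran from 25.8 to 42.3 M. The 8 CD8 T cell markers summed to 116316 to 118464 depth-normalized reads in methionine-free fresh medium and 135823 to 139188 in supernatant. Their sum was 159844 to 166722 in complete fresh medium and 172772 to 185149 in supplemented supernatant, so it moved with the media. The markers themselves went both ways. In methionine-free over complete fresh medium 2 were called higher, 5 lower and 1 not called. Cd8a was higher (30349 to 31107 reads, against 24022 to 24779 in complete fresh medium), whereas Thy1 was lower (24795 to 26059, against 41243 to 45038). Of 8 melanocyte and melanoma markers 7 had a value, and they summed to 258 to 284 reads in methionine-free fresh medium, 231 to 257 in supernatant, 103 to 135 in complete fresh medium and 91.0 to 144 in supplemented supernatant. Most of the difference was Pmel, at 169 to 182, 122 to 149, 24.3 to 34.0 and 22.5 to 33.9 reads in that order, while Tyr reached 84.7 and Mitf 68.4 reads. The other 4 (Mlana, Dct, Tyrp1 and Slc45a2) reached 7.14 reads at most and were at 0 in some libraries. Of the 3 tested, 2 were higher and 1 lower with methionine removal. The lower one was Tyr, at 27.3 to 44.8 reads in methionine-free and 48.6 to 84.7 in complete fresh medium. In supernatant over complete fresh medium 2 were higher and 1 was not called (median log2 1.13). The part of these melanocyte and melanoma markers in the results was not tested. Transcript levels come from bulk RNA, so fewer cells of one kind and less RNA per cell cannot be told apart. Markers of other lymphocytes moved with the media as well. The 6 NK markers with a value summed to 11475 to 11966 reads in methionine-free fresh medium and 17914 to 19542 in supplemented supernatant. Nkg7 carried most of it (10084.5 to 10621 and 15239 to 17006.5). Klrb1c stood at 18.4 to 34.6 and 242 to 283, and Ncr1 reached 16.6 at most. Of 5 tested, 4 were called higher and 1 not called. The 8 CD4 T cell markers summed to 13258 to 13379 and 7016 to 7356 in these media. Ccr4 carried most of that fall (7582 to 7735 and 2232 to 2447), and Cd4 stood at 146 to 187 and 134 to 139. Of the 8, 6 were called lower, 1 higher and 1 not called. The part of these markers in the results was not tested. Under scaling on total reads, the median log2 fold change over all tested genes went from 0.0092 to 0.17 for methionine removal (methionine-free over complete fresh medium) and from -0.0041 to -0.14 for methionine addition (supplemented over unsupplemented supernatant). Changes smaller than these shifts therefore depend on the scaling.

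Per unit of transcript length, the 9 genes spanned a wide range. In complete fresh medium, Txn1 stood at 484 ± 94.2 FPKM (fragments scaled to transcript length and library size) and Prdx1 at 393 ± 36.7 FPKM (SD, n = 4), and the libraries of these top genes overlapped. Txnrd1 followed at 47.5 ± 3.28 FPKM, Keap1 at 37.6 ± 3.21, Nfe2l2 at 25.8 ± 2.21 and Hmox1 at 14.9 ± 2.01. Srxn1 at 3.33 ± 0.374 FPKM, Nqo1 at 2.17 ± 0.433 and Me1 at 1.45 ± 0.439 were the lowest. In methionine-free fresh medium, Nfe2l2 at 47.9 ± 2.72 FPKM ranked above Keap1 at 33.6 ± 5.22 FPKM, the reverse of their order in complete fresh medium, and Nqo1 fell to 0.423 ± 0.0528 FPKM.

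Promoter sequence was inspected because most of these genes are known NRF2 targets. RefSeq (GRCm38.p6) gave 11 promoter windows, each from 250 bases before to 50 after a transcript start, for 8 of the 9 genes. Hmox1 was not matched. The core of the antioxidant response element, TGACNNNGC, was searched on both strands. It occurred in 5 of the 11 windows, 1 each for Me1, Prdx1, Nfe2l2, Txnrd1 and Srxn1, against 12.4% of all 32851 windows and 14.6% of the windows of tested genes. All 5 matches are shown, since they show which of these genes carry the core near a start and in which orientation, with 10 flanking bases on each side, 5′ to 3′ on the strand of the gene, with the match in capitals.
Me1, chr9:86695902-86695930 on the minus strand, match at position -6 from the start: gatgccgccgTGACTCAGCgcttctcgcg
Prdx1, chr4:116685456-116685484 on the plus strand, match on the opposite strand at position -133: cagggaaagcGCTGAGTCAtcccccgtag
Nfe2l2, chr2:75704885-75704913 on the minus strand, match at position -240 from the start: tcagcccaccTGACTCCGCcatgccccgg
Txnrd1, chr10:82859104-82859132 on the plus strand, match on the opposite strand at position -92: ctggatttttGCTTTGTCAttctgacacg
Srxn1, chr2:152105542-152105570 on the plus strand, match on the opposite strand at position 28: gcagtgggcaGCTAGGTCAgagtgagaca
The windows of Nqo1, Keap1 and Txn1, and the others of Txnrd1 and Me1, did not hold these letters. A match describes the sequence only and does not show that NRF2 binds there. The genes with a match did not share a direction of change, as the values below show.

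**Figure D1:**
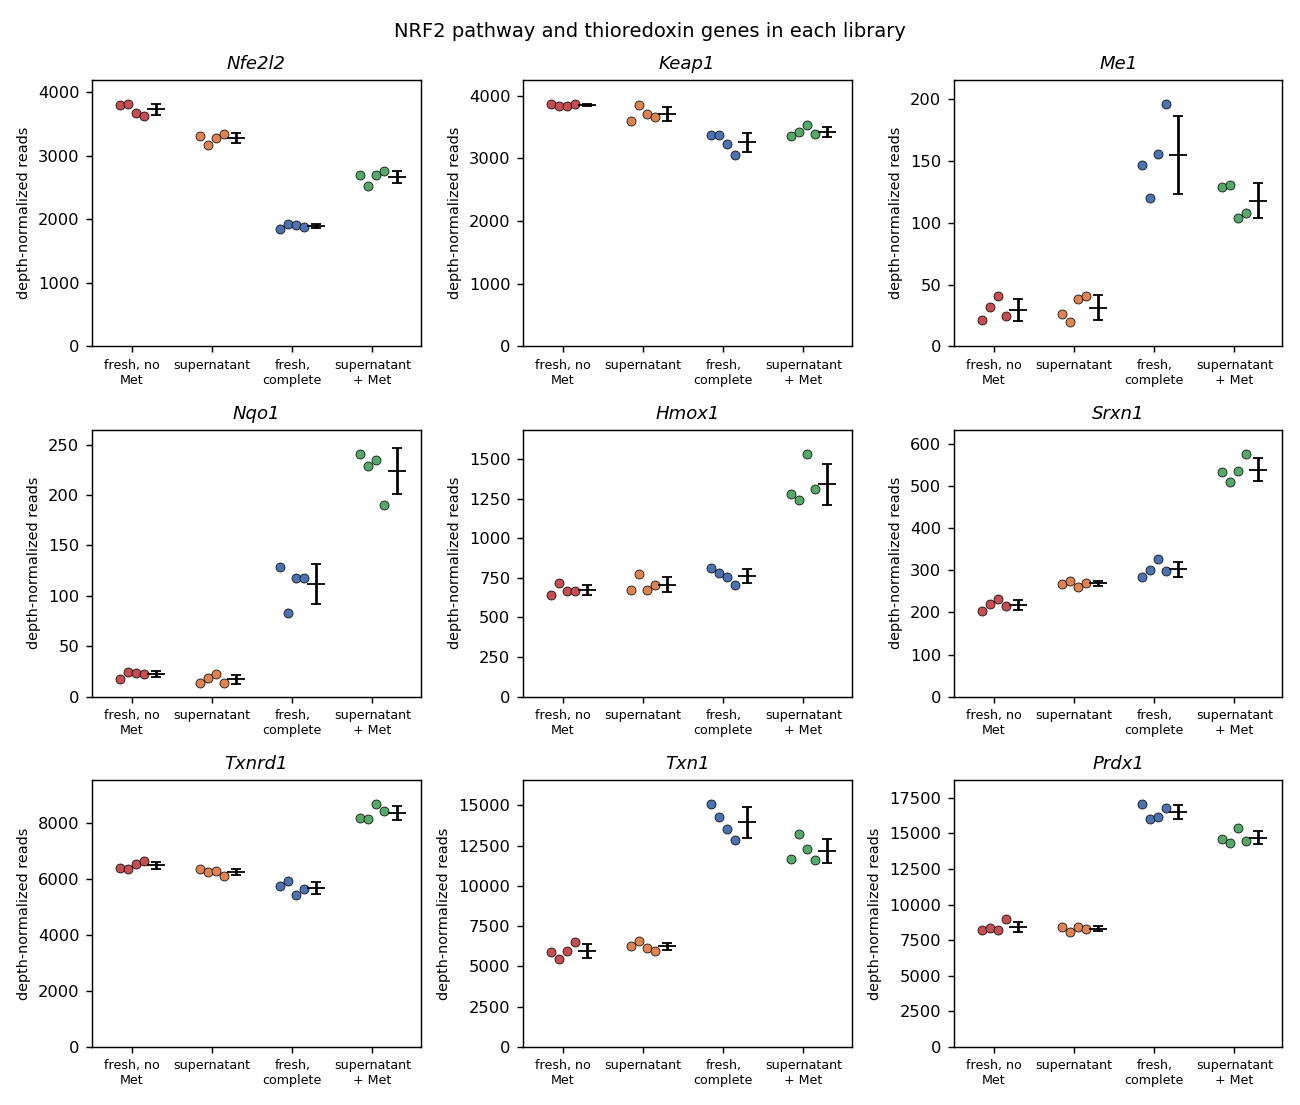
Depth-normalized reads (y axis, linear from 0) of the 9 genes in each of the 16 libraries, by medium; the bar beside each group is its mean with SD (n = 4). Nfe2l2 is lowest in complete fresh medium (1855 to 1928 reads), whereas Nqo1, Hmox1, Srxn1 and Txnrd1 are highest in supplemented supernatant.

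Nfe2l2 was higher in the media without added methionine, and Keap1 changed little, in a direction that differed between the deposited tables. Nfe2l2 (chromosome 2, 75675513 to 75704641, GRCm38) had 3799, 3817, 3681 and 3633 depth-normalized reads in methionine-free fresh medium and 3314, 3168, 3280 and 3346 in supernatant. It had 1855, 1928, 1913 and 1882 reads in complete fresh medium and 2699, 2533, 2697 and 2757 in supplemented supernatant. No 2 media overlapped, so the order of levels was methionine-free fresh medium, supernatant, supplemented supernatant and complete fresh medium. Nfe2l2 rose 1.97-fold with methionine removal from fresh medium (log2 fold change 0.98, SE 0.034, limma adjusted p 2.03e-23). Adding methionine to supernatant lowered it, but by less, to 0.815 of its level (log2 -0.29, adjusted p 1.24e-09). It therefore stayed 1.41-fold above complete fresh medium in supplemented supernatant (adjusted p 1.88e-14). By FPKM the fall with addition was -0.21, not called without a block (adjusted p 0.125) and called with the replicate number as a block (adjusted p 0.00256). Blocked values are given beside the FPKM values below because same-numbered libraries tended to deviate together in that table.

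Keap1 (chromosome 9, 21229730 to 21239361) had 3869, 3837, 3843 and 3868 reads in methionine-free fresh medium and 3589, 3854, 3708 and 3656 in supernatant. Complete fresh medium gave 3368, 3375, 3224 and 3051 reads, and supplemented supernatant 3357, 3429.5, 3536 and 3384. All 8 libraries of the first pair of media lay above the 8 of the second. Keap1 rose 1.18-fold with removal (log2 0.25, SE 0.034, adjusted p 5.41e-08) and fell by 0.11 on the log2 scale with addition (adjusted p 0.0032). Both directions turned over by FPKM, where neither was called: -0.17 for removal (adjusted p 0.36, blocked 0.0633) and 0.11 for addition (adjusted p 0.564, blocked 0.206). In supernatant over complete fresh medium Keap1 was called higher from the reads (log2 0.19, adjusted p 6.77e-06), whereas FPKM gave -0.21, not called without the block (adjusted p 0.264) and called lower with it (adjusted p 0.0279). Exons of Keap1 share 510 bases with the antisense gene Gm16754, and the strand used in counting is not stated; its part in the difference was not tested. Supplemented supernatant and complete fresh medium were not told apart for Keap1 (log2 0.08, adjusted p 0.0509). That comparison became a call when replicate 0 (0.09, adjusted p 0.0274) or replicate 1 (0.09, adjusted p 0.0242) of complete fresh medium was dropped, or replicate 0 of supplemented supernatant (0.08, adjusted p 0.0466), and under other scalings, a higher pseudocount, a stricter filter and edgeR (0.07 to 0.09). By FPKM it was -0.09 (adjusted p 0.771, blocked 0.346).

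The ratio of Nfe2l2 to Keap1 within a library does not depend on scaling between libraries. It averaged 0.969 ± 0.0247 in methionine-free fresh medium, 0.886 ± 0.0460 in supernatant, 0.780 ± 0.0356 in supplemented supernatant and 0.583 ± 0.0286 in complete fresh medium (SD, n = 4). Each of the 6 pairs of media differed in this ratio, with no overlap between libraries (two-sided exact permutation test, p 0.0286, the smallest that 4 against 4 allows; adjusted p 0.0303 over 18 ratio comparisons). This and the ratios below were chosen after the values were seen. Their p-values therefore only describe the separation of these libraries and are not independent evidence. By FPKM all 18 ratio differences kept their direction, and none was called (adjusted p 0.0643 to 0.857, with no block). With 4 against 4 the exact p cannot fall below 0.0286, so the adjusted p depends on how many comparisons reach that floor. By FPKM the comparisons with an adjusted p of 0.0643 were at that floor. Those with a higher adjusted p were not, so the floor does not account for their missing calls. Some differences were smaller by FPKM and others were larger.

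Nqo1, Hmox1 and Srxn1, all classic NRF2 targets, reached their highest level in supplemented supernatant. Nqo1 encodes a quinone reductase (chromosome 8, 107388225 to 107403206). It had 17.9, 24.7, 23.7 and 22.4 reads in methionine-free fresh medium and 13.3, 18.8, 22.3 and 13.7 in supernatant. It had 129, 83.3, 118 and 118 reads in complete fresh medium and 241, 228, 235 and 190.5 in supplemented supernatant. Complete fresh medium and supplemented supernatant lay above the other media in every library, and supplemented supernatant lay above complete fresh medium. Nqo1 fell to 0.198 of its level with removal (log2 -2.27, SE 0.18, adjusted p 1.51e-13). It rose 13.2-fold with addition to supernatant (log2 3.67, SE 0.18, adjusted p 5.24e-19), a larger log2 fold change than 99.9% of tested genes had. Supplemented supernatant held 2.00-fold the level of complete fresh medium (log2 1.01, adjusted p 1.08e-05). These low levels rest on few reads, 20 to 26 per library in methionine-free fresh medium and 12 to 28 in supernatant. Those media were not told apart (log2 -0.39, with 2 standard errors from -0.74 to -0.03, adjusted p 0.114), except without replicate 2 of supernatant (-0.52, adjusted p 0.0375).

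Hmox1 encodes heme oxygenase 1, which breaks down heme (chromosome 8, 75093621 to 75100589). Its libraries had 643, 717, 667 and 669 reads in methionine-free fresh medium, 675, 776, 675 and 705 in supernatant and 813, 779, 755 and 708 in complete fresh medium. Supplemented supernatant stood apart with 1281, 1244, 1532 and 1315 reads. The first 3 media overlapped one another, and supplemented supernatant lay above all 12 of their libraries. Hmox1 rose 1.90-fold with addition (log2 0.92, SE 0.061, adjusted p 1.68e-15) and was 1.76-fold above complete fresh medium (adjusted p 2.04e-13). Its fall with removal was small (log2 -0.18, adjusted p 0.00717) and the groups overlapped. Scaling on total reads left -0.02 (adjusted p 0.757), and FPKM gave -0.29, not called without the block (adjusted p 0.174) and called with it (adjusted p 0.00389). Supernatant and complete fresh medium were not told apart (-0.11, adjusted p 0.0905; 0.04 with scaling on total reads). Dropping replicate 3 of complete fresh medium made it a call (-0.15, adjusted p 0.0332). So did dropping replicate 1 of supernatant (-0.16, adjusted p 0.0216) and quantile normalization (-0.15, adjusted p 0.0242). Hmox1 is also a macrophage gene. Of 10 myeloid markers 9 had a value, and their sum was 192 to 253 reads in methionine-free fresh medium, 347 to 424 in complete fresh medium, 206 to 232 in supernatant and 178 to 243 in supplemented supernatant. Cd68 carried much of it, at 73.7 to 122, 303 to 340.05, 59.3 to 83.8 and 130.1 to 189 reads in that order, so it was higher with addition, as Hmox1 was. Of the 4 tested, 1 rose and 3 fell with addition, among them Itgam and Mpeg1, which reached 65.0 and 47.7 reads in supernatant. Csf1r stood at 5.77 reads or below, and Fcgr1 was at 0 in all libraries of supplemented supernatant. The part of these markers in the Hmox1 result was not tested.

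Srxn1 encodes sulfiredoxin, which repairs over-oxidized peroxiredoxins (chromosome 2, 152105516 to 152111376). It had 203, 220.5, 232 and 215 reads in methionine-free fresh medium and 269, 276, 261 and 271 in supernatant. It had 285, 301, 327 and 298 reads in complete fresh medium and 533, 511, 536 and 577 in supplemented supernatant. No 2 media overlapped. Srxn1 rose 2.00-fold with addition (adjusted p 1.64e-14) and was 1.78-fold above complete fresh medium (adjusted p 6.56e-12). It fell by 0.47 on the log2 scale with removal (adjusted p 3.34e-07). Srxn1 was the only one of the 9 genes called higher in supernatant than in methionine-free fresh medium (1.24-fold, adjusted p 0.00146), a call that FPKM (log2 0.28) gave with the block (adjusted p 0.0159) and not without it (adjusted p 0.534). The call against complete fresh medium (supernatant lower, -0.17, adjusted p 0.0305) rested on single libraries. Dropping replicate 2 of complete fresh medium ended it (-0.13, adjusted p 0.116), as did dropping the same-numbered library of supernatant (-0.15, adjusted p 0.0703). Scaling on total reads gave -0.02 (adjusted p 0.773) and FPKM -0.21 (adjusted p 0.133, called with the block at 0.0114). A fit of only these groups gave an adjusted p of 0.0527.

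By the Pearson correlation of log2 values over the 16 libraries, among 9504 other genes with a mean of at least 100, Nqo1 was most like Hscb (r 0.992), Tubgcp2 (0.990) and Vrk1 (0.989). Hmox1 was most like Ogg1 (0.982), Sars (0.982) and Shmt2 (0.981), and Srxn1 most like Mapk11 (0.988), Eef2k (0.987) and Bid (0.987). These are descriptions over libraries that fall into 4 media, and many genes share such a pattern. Shmt2, for example, averaged 15518 reads in methionine-free fresh medium, 16354 in complete fresh medium, 15455 in supernatant and 34849 in supplemented supernatant.

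The thioredoxin pair moved apart with methionine removal, whereas both genes rose with addition. Txn1 (chromosome 4, 57943373 to 57956411) had 5876, 5472, 5934 and 6519 reads in methionine-free fresh medium and 6256, 6549.75, 6164 and 5956 in supernatant. It had 15073, 14284, 13553 and 12853 reads in complete fresh medium and 11665, 13196, 12272 and 11595 in supplemented supernatant. Every library of complete fresh medium and supplemented supernatant lay above every other library, and these media overlapped each other. Removal lowered Txn1 to 0.427 of its level (log2 -1.23, SE 0.045, adjusted p 1.56e-22), and addition raised it 1.95-fold (adjusted p 1.84e-19). Supplemented supernatant was called slightly lower than complete fresh medium (0.874 of its level, adjusted p 3.88e-04), a call that FPKM (-0.29) gave with the block (adjusted p 0.00781) and not without it (adjusted p 0.411). GENCODE M21 names 1 pseudogene of thioredoxin, with which reads may be shared. Only symbols made of the gene name and -ps were searched, so pseudogenes under other names were not counted for any of these genes.

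Txnrd1 (chromosome 10, 82833951 to 82897712) did not fall with methionine removal. It had 6402, 6365, 6550.4 and 6638 reads in methionine-free fresh medium and 6341, 6235, 6296 and 6092 in supernatant. Complete fresh medium gave 5740.35, 5932, 5419 and 5655 reads and supplemented supernatant 8194, 8143, 8675 and 8423. Complete fresh medium was the lowest, supernatant and methionine-free fresh medium followed without being told apart by the test (log2 -0.06, adjusted p 0.181) although their libraries did not overlap, and supplemented supernatant was the highest. Txnrd1 rose with removal (log2 0.19, SE 0.030, adjusted p 8.00e-07) and also rose with addition (log2 0.42, adjusted p 1.81e-14). By FPKM the rise with removal was 0.14, not called without the block (adjusted p 0.136) and called with it (adjusted p 0.0116). The rise in supernatant over complete fresh medium (0.13, adjusted p 1.44e-04) was not called there (0.07, adjusted p 0.443, blocked 0.153). It was 1.47-fold above complete fresh medium in supplemented supernatant (adjusted p 6.77e-17). The ratio of Txn1 to Txnrd1 reads within a library was 2.45 ± 0.149 in complete fresh medium, 1.46 ± 0.1097 in supplemented supernatant, 0.998 ± 0.0349 in supernatant and 0.916 ± 0.0505 in methionine-free fresh medium (SD, n = 4). All pairs of media differed (exact permutation p 0.0286, adjusted p 0.0303) except the last 2 (exact permutation p 0.0857, adjusted p 0.0857).

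**Figure D2:**
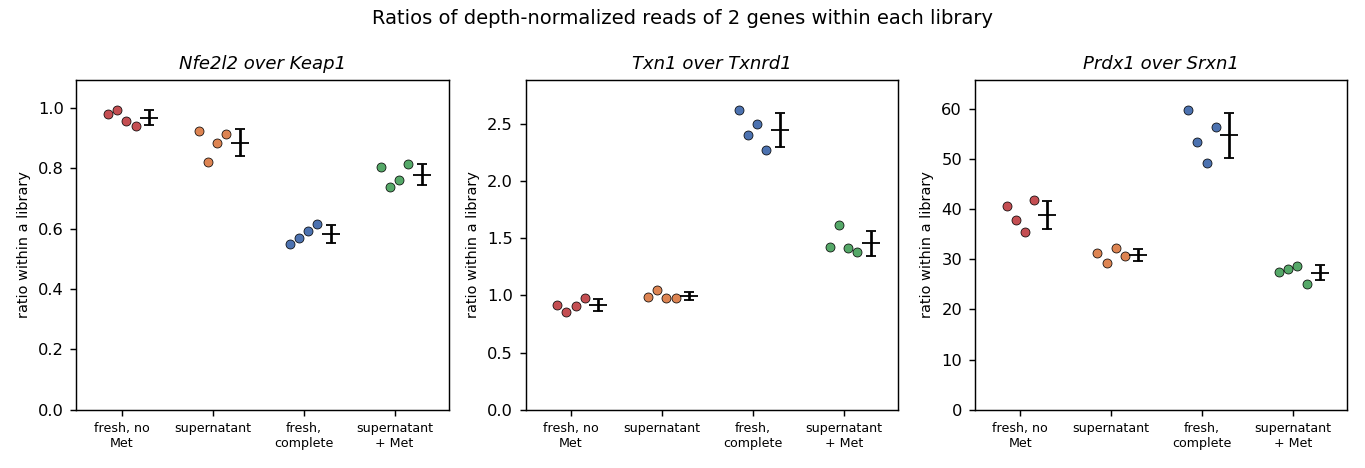
Ratio of the depth-normalized reads of 2 genes in the same library (y axis, from 0) for Nfe2l2 over Keap1, Txn1 over Txnrd1 and Prdx1 over Srxn1, by medium, with the mean and SD (n = 4) beside each group. The Nfe2l2 to Keap1 ratio is lowest and the other ratios are highest in complete fresh medium.

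Prdx1 encodes peroxiredoxin 1, a cytosolic peroxidase that thioredoxin regenerates and sulfiredoxin repairs (chromosome 4, 116685544 to 116700822). Its libraries had 8236, 8325, 8233 and 8974 reads in methionine-free fresh medium and 8418, 8061, 8414 and 8306 in supernatant. It had 17057, 16026, 16133 and 16771 reads in complete fresh medium and 14607, 14351, 15358 and 14495 in supplemented supernatant. Methionine-free fresh medium and supernatant overlapped (log2 -0.02, with 2 standard errors from -0.09 to 0.04, adjusted p 0.627), and all their libraries lay below those of the other media. Prdx1 fell to 0.512 of its level with removal (log2 -0.97, SE 0.031, adjusted p 2.83e-24) and rose 1.77-fold with addition (adjusted p 3.75e-22). It ended at 0.891 of the level of complete fresh medium (adjusted p 2.15e-05), a call not made by FPKM (-0.20, adjusted p 0.517, blocked 0.0909). Prdx1 and its repair gene Srxn1 thus differed in supplemented supernatant: 27.3 ± 1.54 reads of Prdx1 per read of Srxn1 there, against 54.7 ± 4.47 in complete fresh medium (SD, n = 4; exact permutation p 0.0286, adjusted p 0.0303). The ratio was 38.87 (range 35.5 to 41.7) in methionine-free fresh medium and 30.9 ± 1.26 in supernatant.

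Me1, the cytosolic malic enzyme that makes NADPH (chromosome 9, 86581371 to 86695953), had 21.5, 31.6, 40.9 and 24.5 reads in methionine-free fresh medium and 26.6, 19.9, 38.2 and 41.0 in supernatant. It had 147, 119.9, 156 and 196 reads in complete fresh medium and 129, 131, 104 and 108 in supplemented supernatant. Every library of the latter media lay above every library of the former. Removal lowered Me1 to 0.192 of its level (log2 -2.36, SE 0.20, adjusted p 1.23e-12) and addition raised it 3.75-fold (log2 1.92, adjusted p 2.05e-10). Supplemented supernatant and complete fresh medium were not told apart in this fit (log2 -0.37, with 2 standard errors from -0.78 to 0.03, adjusted p 0.106). It was called lower by edgeR (-0.41, adjusted p 0.0154) and DESeq2 (-0.41, adjusted p 0.024) on 15 libraries and with only these groups in the fit (adjusted p 0.0209).

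**Figure D3:**
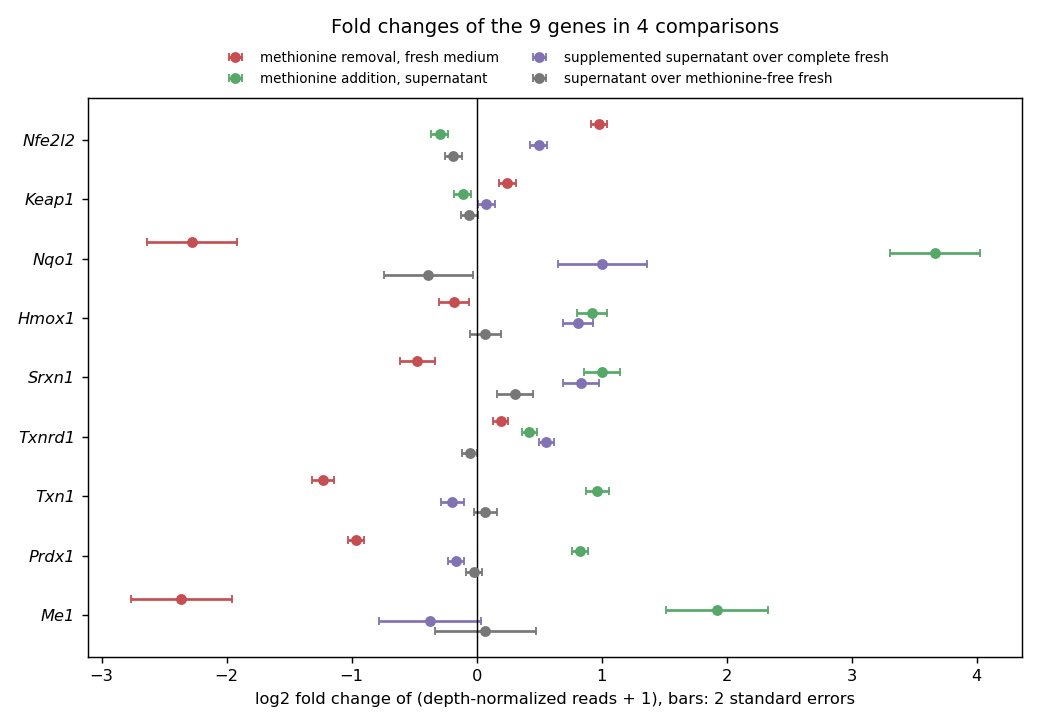
Log2 fold change (x axis; bars are 2 standard errors) of each of the 9 genes in 4 comparisons. Addition of methionine to supernatant moves Nqo1 by 3.67 and Nfe2l2 by -0.29, and supplemented supernatant is above complete fresh medium for Nfe2l2, Nqo1, Hmox1, Srxn1 and Txnrd1.

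As a set, the 9 genes were read against a background in which most genes were called. With methionine removal 3 rose and 6 fell, where 85.6% of tested genes were called, 43.3% higher and 42.3% lower. Groups did not overlap for 8 of the 9, against 81.3% of tested genes. In supernatant over complete fresh medium 3 were higher, 5 lower and 1 not called, where 85.5% were called, 43.0% higher and 42.5% lower; 8 did not overlap, against 80.0%. With methionine addition 7 rose and 2 fell, where 83.7% were called, 41.8% higher and 41.8% lower, and none of the 9 overlapped, against 78.1% without overlap. Shares called this close to the background are no result about these genes, and the first pair of comparisons share the libraries of complete fresh medium.

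In supplemented supernatant over complete fresh medium 5 were higher, 2 lower and 2 not called. Of tested genes 65.0% were called there, 32.5% higher and 32.5% lower, and 6 of the 9 did not overlap, against 56.1%. In supernatant over methionine-free fresh medium 1 was higher (Srxn1), 1 lower (Nfe2l2, log2 -0.19, adjusted p 5.61e-05) and 7 not called. Of tested genes 26.8% were called there, 14.0% higher and 12.9% lower, and 3 of the 9 did not overlap, against 28.7%. By FPKM neither call was made without the block (adjusted p 0.534 for Srxn1 and 0.865 for Nfe2l2), and both were made with it (adjusted p 0.0159 and 0.0254).

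Methionine removal from fresh medium and its addition to supernatant share no library, so the effects can be set side by side. The 6 genes that fell with removal all rose with addition, a pattern held by 35.2% of tested genes. Nfe2l2 and Keap1 rose and then fell, as did 35.8% of tested genes. Txnrd1 rose in both, as did 2.61% of tested genes. Nqo1, Hmox1, Srxn1 and Txnrd1 rose with addition and were also above complete fresh medium, which held for 4 of the 9 genes and 13.1% of tested genes; Txn1 and Prdx1 were called below complete fresh medium.

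The effect of methionine (with minus without) was tested for a difference between supernatant and fresh medium, where 52.6% of tested genes were called, 27.6% with a larger and 25.0% with a smaller value in supernatant. Of the 9 genes, 6 had a larger and 2 a smaller value. The effect was larger in supernatant for Nqo1 by 1.39 on the log2 scale (adjusted p 2.39e-05), Hmox1 by 0.74 (adjusted p 8.93e-09), Txnrd1 by 0.61 (adjusted p 1.00e-13) and Srxn1 by 0.53 (adjusted p 5.42e-05). Methionine lowered Nfe2l2 by less in supernatant, a difference of 0.68 (adjusted p 8.45e-14). Txn1 (-0.26, adjusted p 8.91e-04) and Prdx1 (-0.14, adjusted p 0.00688) gained less from methionine in supernatant. By FPKM neither was called: -0.26 for Txn1 (adjusted p 0.772, blocked 0.0857) and -0.000346 for Prdx1 (adjusted p 0.9997, blocked 0.9987). Keap1 differed by 0.13 (adjusted p 0.0185), a call that ended when replicate 3 of complete fresh medium was dropped (0.10, adjusted p 0.0539). Me1 was not called (-0.44, adjusted p 0.199), except without replicate 1 of supernatant (-0.63, adjusted p 0.0458). By FPKM 3 of the 9 differences were called, those of Nfe2l2, Nqo1 and Txnrd1, and with the block also those of Hmox1 (adjusted p 4.84e-04) and Srxn1 (adjusted p 0.00113).

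**Figure D4:**
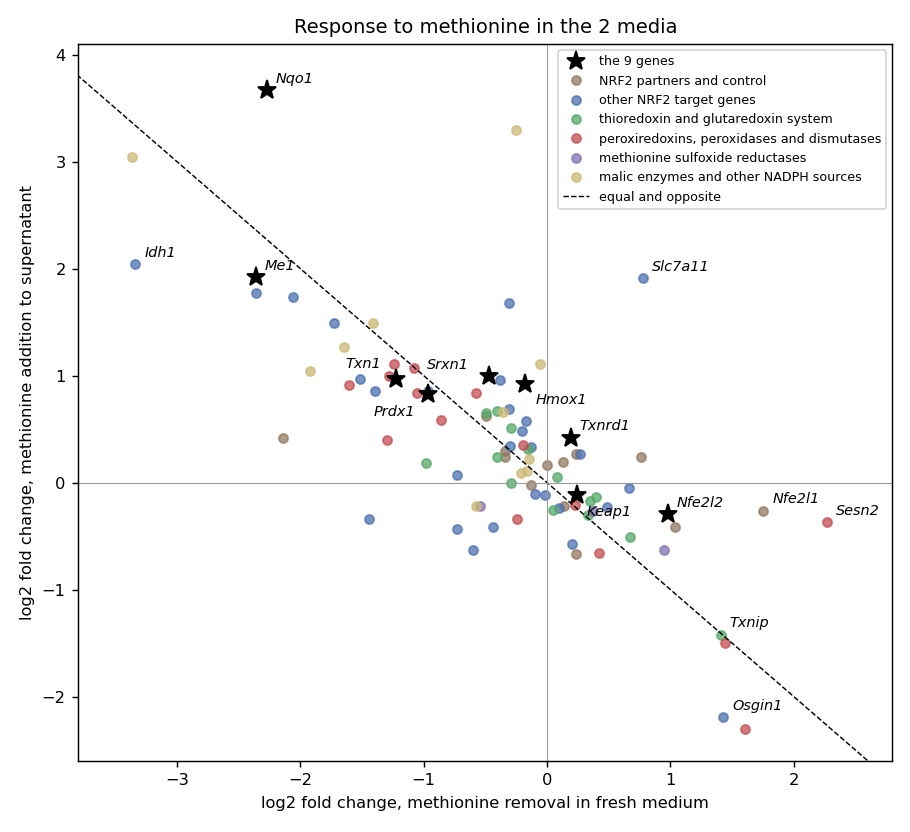
Log2 fold change with methionine removal in fresh medium (x axis) against that with methionine addition to supernatant (y axis) for the 9 genes (stars) and 84 other genes of the pathway (circles, coloured by list); the dashed line marks equal and opposite changes. Txnrd1 and the cystine importer gene Slc7a11 are higher on both axes.

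Other genes of the pathway are given as counts, to be read against the shares over all tested genes: 43.3% higher and 42.3% lower with removal, and 41.8% each way with addition. Partners, regulators and relatives of NRF2 were counted together and went both ways. Of 13 such genes, 7 rose, 5 fell and 1 was not called with removal (median log2 0.13, against 0.0092 over all tested genes), and 8 rose and 4 fell with addition (median 0.20, against -0.0041). Nfe2l1, which encodes the related factor NRF1, rose from 4442 ± 63.7 reads in complete fresh medium to 14979 ± 294 without methionine, and still stood at 12305 ± 494 in supplemented supernatant (SD, n = 4; log2 1.47 over complete fresh medium, adjusted p 1.23e-28). The small MAF genes split: with removal Mafk rose by 1.04 (adjusted p 2.70e-21) and Maff fell by 2.14 on the log2 scale (adjusted p 2.78e-16). Palb2, which encodes a DNA repair protein that binds KEAP1, fell by 0.49.

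Among 28 other tested NRF2 target genes, 18 fell, 6 rose and 4 were not called with removal (median -0.31; 42.3% of all tested genes fell). With addition 17 rose, 8 fell and 3 were not called (median 0.34; 41.8% of all tested genes rose). In supplemented supernatant over complete fresh medium 10 of these 28 were called higher and 16 lower (median -0.19), where 32.5% of all tested genes were called each way. Slc7a11, which imports cystine for glutathione synthesis, had 87.5 ± 14.6 reads in complete fresh medium, 149 ± 7.21 in methionine-free fresh medium, 176 ± 21.3 in supernatant and 665 ± 50.2 in supplemented supernatant (SD, n = 4). It was 2.93 higher on the log2 scale in supplemented supernatant than in complete fresh medium (adjusted p 1.85e-21), and it rose with both removal and addition, as Txnrd1 did. Osgin1, an oxidative stress response gene, rose by 1.43 with removal and fell by 2.19 with addition. The NADPH-producing isocitrate dehydrogenase gene Idh1 fell by 3.34 with removal and rose by 2.04 with addition, and the biliverdin reductase gene Blvrb fell by 2.36 and rose by 1.77.

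Of 14 other thioredoxin and glutaredoxin genes, 5 rose, 7 fell and 2 were not called with removal (median -0.05). With addition 5 rose, 6 fell and 3 were not called (median 0.03), so the list did not share the rise of Txn1 and Txnrd1. Txnip, whose product binds and inhibits thioredoxin, moved against Txn1. It stood at 33392 ± 610 reads in methionine-free fresh medium and 34589 ± 603 in supernatant, and at 12589 ± 617 in complete fresh medium and 12920.3 ± 534 in supplemented supernatant (SD, n = 4). The rise with removal was 1.41 (adjusted p 2.23e-28) and the fall with addition was 1.42 on the log2 scale (adjusted p 3.53e-28). The glutaredoxin gene Glrx fell by 0.98 with removal and the mitochondrial iron-sulfur cluster gene Glrx5 rose by 0.67. Txnl1, a thioredoxin-like gene, fell by 0.49.

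Of 15 tested peroxiredoxins, other peroxidases, dismutases and sestrins 10 fell and 5 rose with removal (median -0.57). Over all tested genes 42.3% fell and 43.3% rose. With addition 9 rose and 6 fell (median 0.40; 41.8% each way over all tested genes). The peroxiredoxin gene Prdx5 fell by 1.61 with removal and rose by 0.91 with addition. The sestrin genes went opposite ways, with Sesn2, a stress-induced inhibitor of mTORC1, up by 2.27 with removal and Sesn1 down by 1.30. Gpx7, an endoplasmic reticulum peroxidase, rose by 1.44. Of 11 genes of malic enzymes and other NADPH sources, 9 fell, 0 rose and 2 were not called with removal (median -0.35; limma), where 42.3% of all tested genes fell. With addition 9 rose and 2 were not called (median 1.04), where 41.8% rose. The mitochondrial malic enzyme gene Me2 fell by 1.92 with removal and rose by 1.04 with addition, and Idh2, a mitochondrial isocitrate dehydrogenase, fell by 1.64 and rose by 1.27. The methionine sulfoxide reductases, which use thioredoxin to reduce oxidized methionine, had 3 tested genes. Msrb2 (0.95) and Msra (0.37) rose with removal, whereas Sepx1, the older symbol of Msrb1, fell by 0.54, and all 3 fell with addition.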

How the data were processed

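Gene expression was measured by RNA sequencing in 16 libraries, 4 per medium. The submitters' processing notes list TopHat2 2.0.13 with Bowtie2 2.2.1, Cuffdiff 2.2.1, Cufflinks and FastQC 0.11.3, and the builds mm10 and GRCm38, without their roles. The counting tool, gene annotation and strand are not given in the sources used here. The authors deposited 1 signal per gene and library, named a depth-normalized count. Multiplying by a size factor per library turned 100% of these values into whole reads (tolerance 0.01). The authors also deposited FPKM for 23107 genes, which were used to compare levels between genes and as an alternative.

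Values were analysed as log2(value + 1) in limma 3.58.1 (R 4.3.3), with 4 group means and a mean-variance trend. The pseudocount understates fold changes of low genes such as Nqo1 and Me1. A gene was called where its p, adjusted by Benjamini and Hochberg over the 12469 tested genes, was below 0.05. Folds are ratios of group means. The procedure was tried on simulated counts with a fixed dispersion and few changed genes. Most genes were called in these data, so that trial does not support the calls made here. Ratios of genes within a library used exact permutation tests. Alternatives were other pseudocounts, filters and scalings, edgeR 4.0.16 and DESeq2 1.42.0 on recovered reads, FPKM (log2(FPKM + 0.1), mean at least 0.5), the replicate number as a block, and leaving out each library. The count tests used 15 libraries: replicate 1 of methionine-free fresh medium was left out because its read step, 0.989, is too close to 1. The 9 genes, the gene lists and the alternatives were chosen with earlier results of these data known. From each list the text names the called genes with the highest and lowest removal changes, 2 of each, given a mean of 100 or more, and the ratios were added after the values were seen. Coordinates are from GENCODE M21 (GRCm38). Replicate numbers are not stated to pair libraries: residuals of the 24 same-numbered pairs correlated at -0.067 to 0.068 in the depth-normalized table, which was fitted without a block, and at 0.093 to 0.479 by FPKM, which is given with and without one. Pairs of libraries of a medium differed by more than counting error (mean chi-square per gene 2.65 to 9.42).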

Additional observations from a re-analysis of the deposited data

Results flagged for a closer look

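The effect of methionine (with minus without) differed between supernatant and fresh medium for 8 of the 9 genes by the interaction term in limma, where 52.6% of tested genes were called. On the log2 scale the difference was 1.39 for Nqo1, 0.74 for Hmox1, 0.68 for Nfe2l2, 0.61 for Txnrd1, 0.53 for Srxn1, 0.13 for Keap1, -0.14 for Prdx1 and -0.26 for Txn1. By FPKM the difference for Prdx1 was -0.000346.

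Prdx1 in replicate 3 of methionine-free fresh medium, at 8974 reads, lay farther from the other 3 libraries of its medium (8233 to 8325 reads) than Dixon's test allows. It was 1 of 36 groups of libraries examined, and chance alone marks about 1 in 20.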

How the results depend on the processing

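Of 1194 recomputed fold changes of the 9 genes, 1134 kept their direction and their side of the threshold, as did 1057 of 1086 outside the FPKM table. By FPKM, with and without a replicate block, Keap1 turned over: -0.171 for removal, -0.208 for supernatant and -0.0946 for supplemented supernatant over complete fresh medium, 0.114 for addition and -0.0572 for the difference of effects. With the block, the call in supernatant was lower (adjusted p 0.0279). In supernatant over methionine-free fresh medium, where neither was called, Txn1 gave -0.0292 and Me1 -0.00378 by FPKM. There, leaving out 1 library moved Me1 between -0.0737 and 0.261 and Prdx1 between -0.0355 and 0.00593. Hmox1 in supernatant over complete fresh medium was 0.036 with scaling on total reads. The cause was not tested.

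By FPKM, with fewer genes tested (11684), 6786 genes were called for removal (10672 in the depth-normalized table), 6717 for supernatant (10664), 6027 for addition (10433), 1958 for supplemented supernatant over complete fresh medium (8106), 32 for supernatant over methionine-free fresh medium (3344) and 750 for the difference of effects (6557). Of the 9 genes, FPKM with limma called 5 in supernatant over complete fresh medium (8 in the main table), 0 in supernatant over methionine-free fresh medium (2) and 3 for the difference (8). A replicate block on FPKM gave 1441 genes and 2 of the 9 for supernatant over methionine-free fresh medium, 3942 genes and 5 of the 9 for the difference, and 7 of the 9 for supernatant over complete fresh medium. On the depth-normalized values the block changed no call of the 9 genes (10655 genes for removal). Same-numbered libraries correlated at -0.067 to 0.068 there, with 5 of 16 libraries closest to their own number. By FPKM all 24 pairs were positive (0.093 to 0.479) and 13 of 16 libraries correlated best with their own number, a hint of shared replicate structure in that table. The labels state no pairing and the lowest pair was under the 0.1 set for using it, so blocked values stand beside the unblocked ones. Levels of Nqo1 and Me1 in the low media rest on 12 to 48 reads per library, which limits their fold changes. Without a block, the ratios within a library kept their direction by FPKM, but none kept its call. The exact test has a smallest possible p, so these calls depend on how many comparisons reach it. By FPKM those with an adjusted p above 0.0643 did not reach it.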
